A study of Mus musculus with 8 samples.

Results

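The genes described here are the zinc finger protein genes of the mouse named Zfp, that is, genes whose symbol is Zfp followed by a digit and which held an m6A peak in at least 1 of 4 peak lists. A peak was given to the gene that holds it on the peak's own strand. The rule found 94 Zfp genes among 4307 genes with a peak, with 558 of 20428 placed peaks.

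The cells were RAW264.7, a transformed mouse macrophage line and thus a model of a single line rather than of macrophages in a tissue. N6-methyladenosine (m6A) was mapped by immunoprecipitating RNA fragments with an m6A antibody and sequencing them (MeRIP-seq). The control cells received no compound. The others were given 100 µM of 1 of 3 compounds for 24 h: TBP, TCP and TIP, abbreviations that the labels do not spell out. A condition is represented by 1 immunoprecipitated library, so nothing is replicated, no test was made, and the 3 comparisons share the control library. The 4 inputs were not analysed here. Intervals are exact Clopper-Pearson 95% intervals and cover counting error only. Depth is unknown, since the lists carry no read counts, and a gene without a peak is one in which none was called. The amount of a transcript and its methylation cannot be told apart, nor can fewer cells with a transcript and less of it per cell. Of 10 macrophage markers, 8 held a peak in some list, with Adgre1 and Itgam without one, and 0 of 11 markers of other cell types did.

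Most Zfp genes encode Krüppel-type proteins, in which repeated C2H2 fingers each fold around a zinc ion and together read a DNA sequence. Many also carry a KRAB domain, which recruits the corepressor Trim28 and the histone methyltransferase Setdb1 to silence transposable elements and other targets. In such genes the whole finger array is typically encoded by a single, long last exon. Zfp36 and its relatives are a separate kind, with CCCH fingers that bind AU-rich elements in 3′ UTRs and speed mRNA decay. In mRNA generally, m6A is known to be dense around stop codons, in 3′ UTRs and in long exons.

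The bases under a peak could be read for 1 Zfp site, because a 5′ UTR peak of Zfp646 falls in the promoter window of its divergent neighbour Zfp668 in the RefSeq promoter table (GRCm38.p6). It is printed to show the scale of the data, as the TCP peak there spans 25 bases. The stretch shared by the TBP and TCP peaks, at chr7:127876921-127876945 on the plus strand, reads as follows, with capitals for the 5-base m6A consensus (A, G or T, then A or G, then AC, then A, C or T) on the transcript strand.
Zfp646 5′ UTR: ggttcctggTAACAataggaagtgt
The consensus occurs in 32.1% of all 25-base windows of the promoter table, so its presence here is only a description. The peak ranked 3788 of 6285 in TBP and 5932 of 6981 in TCP, and Zfp646 had no peak at this site in control or TIP.

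The Zfp genes made up 2.18% (1.77 to 2.66) of the genes with a peak. Of 397 protein-coding Zfp genes in RefSeq, 94 held a peak, 23.7% (19.6 to 28.2), against 19.3% (18.7 to 19.8) of 21499 other protein-coding genes. None of the 6 Zfp-named long non-coding genes, 9 pseudogenes and 4 transcribed pseudogenes did. The last step of placing peaks passed over pseudogenes and preferred protein-coding genes, so this outcome was partly set by the rule. The control list (4432 peaks) held 64 Zfp genes, the TBP list (6285) 75, the TCP list (6981) 80 and the TIP list (3034) 39. Their share of the marked genes was 2.58% (1.99 to 3.28), 2.40% (1.89 to 2.995), 2.35% (1.87 to 2.92) and 2.18% (1.55 to 2.96) in the same order. The number of Zfp genes thus had the same order as the length of the lists, while the intervals of their shares overlapped.

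**Figure D1:**
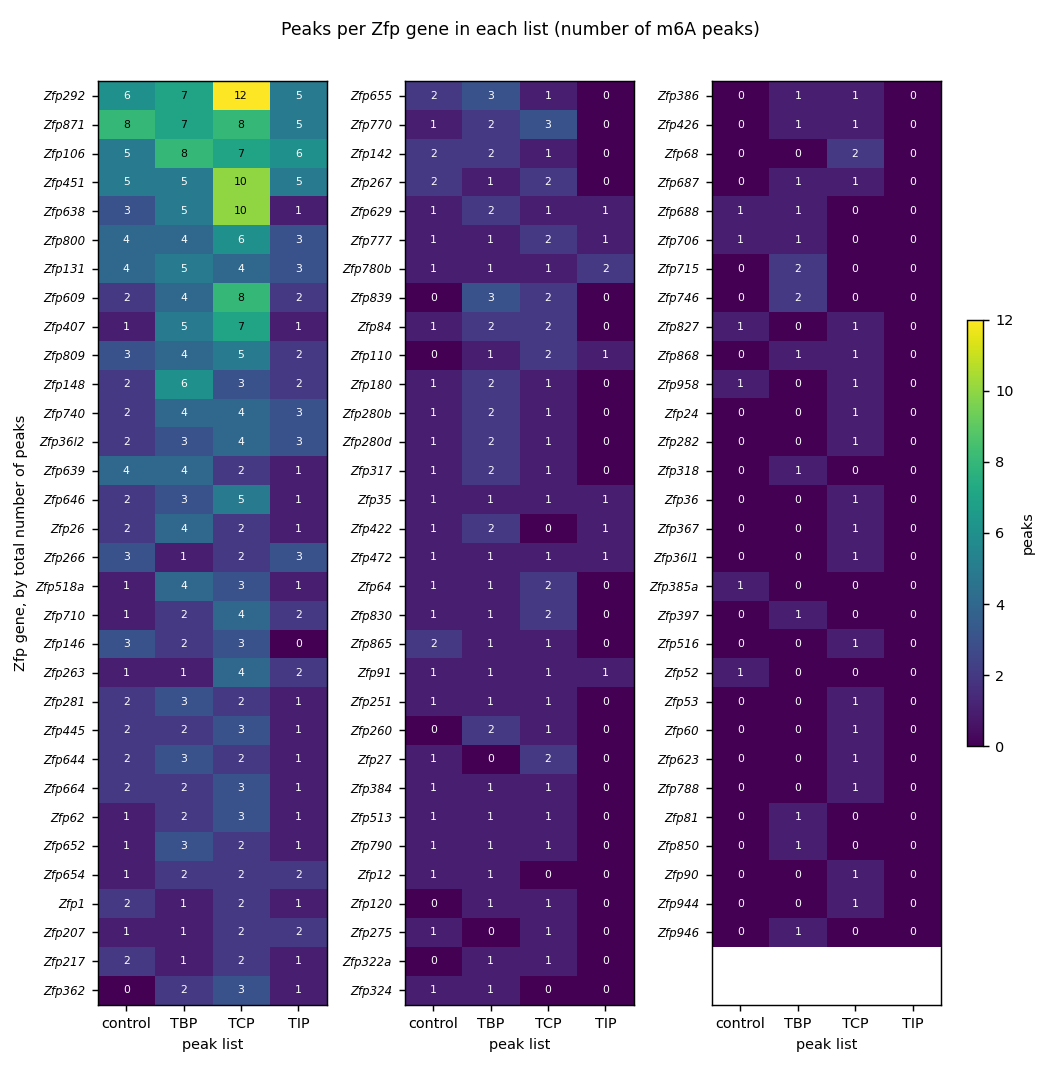
Number of m6A peaks (cell value and colour) of each of the 94 Zfp genes (rows, in order of their total) in the 4 lists (columns). Zfp292 leads with 30 peaks in all, and the TIP column is 0 for every gene of the third panel.

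The peaks were spread unevenly over the family. The median Zfp gene had 4 peaks summed over the 4 lists, 15 genes with 10 or more held 47.5% of the 558 peaks, and 19 genes had a single peak in a single list. Peaks per marked Zfp gene averaged 1.83 (control), 2.25 (TBP), 2.48 (TCP) and 1.897 (TIP), against 1.76, 1.97, 2.02 and 1.66 in other genes. Genes with 3 or more peaks were 17.2% of the Zfp genes and 17.2% of the other genes in control, 29.3% and 21.3% in TBP, 28.8% and 23.2% in TCP, and 23.1% and 14.0% in TIP. The strength of the peaks was close to that of other genes: the strongest peak of the median Zfp gene ranked at 38.3% of the control list, the same value as for other genes, and at 42.2% of the TIP list for both.

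Zfp292, a large zinc finger transcription factor, had the most peaks, with 6 (control), 7 (TBP), 12 (TCP) and 5 (TIP). Of these 30 peaks, 26 lay in exon 8 of 8 and 4 in the 3′ UTR. They formed 15 sites (peaks that overlap by at least 1 bp across lists), of which 2 were in all 4 lists. Its strongest peaks lay at one of these, chromosome 4, 34811538 to 34811787, minus strand, about 8.55 kb from the 3′ end of the gene. That site ranked 766 of 4432 (control), 841 of 6285 (TBP), 554 of 6981 (TCP) and 946 of 3034 (TIP). Over the long last exon the other sites differed from list to list.

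Zfp871 had peaks numbering 8 (control), 7 (TBP), 8 (TCP) and 5 (TIP), and 4 of its 10 sites were in all 4 lists, against 0 to 2 sites of the other 4 genes with most peaks. These peaks sat on both sides of the end of its reading frame, with 15 in the 3′ UTR and 13 in exon 4 of 4. The best-ranked in control, TBP and TCP was in the last exon at chromosome 17, 32775646 to 32775820, with rank 331 (control), 154 (TBP), 193 (TCP) and 17 (TIP).

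Zfp106, an RNA-binding protein needed for motor neurons, had 5 (control), 8 (TBP), 7 (TCP) and 6 (TIP) peaks. It departed from the family's usual place: 23 of its 26 peaks lay in internal exons, mainly exon 5 of 22, between 120533821 and 120535670 on chromosome 2. A single Zfp106 site was in all 4 lists, in exon 11, at 120524046 to 120524170. One TBP peak of this gene spans 17822 bp of genome as a 5′ UTR peak, and it and a TCP peak of Zfp809 were the 2 Zfp peaks over 500 bp.

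Zfp451, a SUMO ligase that acts on topoisomerase 2 complexes, had 5, 5, 10 and 5 peaks in the same order. Of its 25 peaks, 21 are annotated to 3′ UTRs and 4 to exon 4 of a transcript with 4 exons. They fell in separate blocks, 15.2 to 16.2 kb and 39.96 to 40.98 kb from the 3′ end of the gene, so its 3′ UTR class refers to transcripts that end well before the gene does. Zfp638, which binds DNA and takes part in silencing unintegrated retroviral DNA, had 3, 5, 10 and 1 peaks. All but 1 of its 19 peaks lay in internal exons, in exons 2, 22 and 24 of 27, and 0 of its 15 sites were in all 4 lists.

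**Figure D2:**
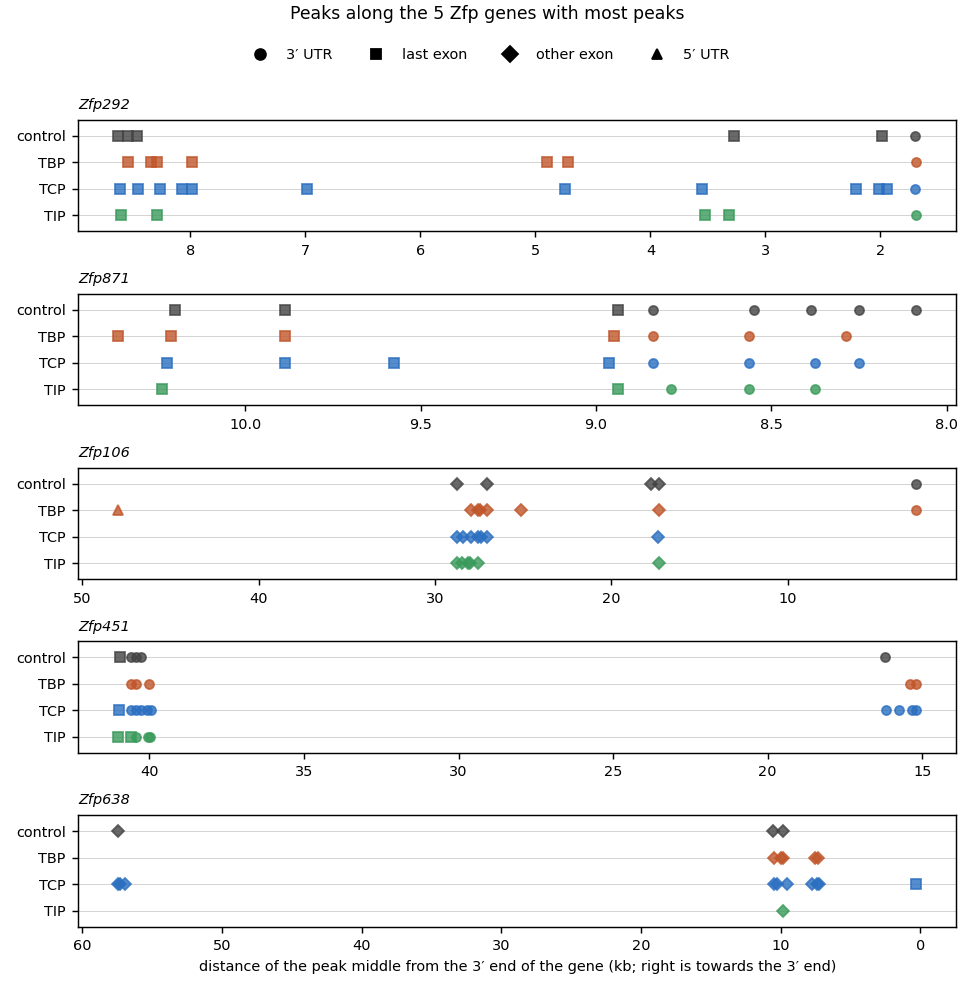
Peaks of the 5 Zfp genes with most peaks, by distance of the peak middle from the 3′ end of the gene (x axis, kb, a different range for each gene) in the 4 lists (rows and colours). Symbols give the annotation class. Zfp292 peaks are spread over its last exon, Zfp871 peaks lie within a short stretch, and those of Zfp106, Zfp451 and Zfp638 form separate blocks.

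The Zfp genes with a peak in all 4 lists numbered 36 of 94, 38.3% (28.5 to 48.9), against 29.9% of all 4307 genes. By mean rank of the strongest peak, Zfp809 came first among them. It encodes a KRAB zinc finger protein that silences retroviral DNA with Trim28. It had peaks numbering 3 (control), 4 (TBP), 5 (TCP) and 2 (TIP), and its strongest ranked 289, 53, 136 and 17 in the same order. Its TCP peak of rank 136 is 1 of those over 500 bp. The site at chromosome 9, 22239432 to 22239606, in the 3′ UTR, was in all 4 lists. Rank 17 in TIP is shared by 301 tied peaks, as the TIP scores take only 44 distinct values, so TIP ranks are coarse.

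After Zfp809 came Zfp871 and Zfp106, then Zfp207, a spindle assembly factor that binds the checkpoint protein Bub3. Its 3′ UTR site at chromosome 11, 80395584 to 80395658, ranked 1019 (control), 129 (TBP), 80 (TCP) and 399 (TIP). Zfp740 held the best-ranked Zfp peak of the TCP list, at rank 25, in its 3′ UTR at chromosome 15, 102212866 to 102212990. The same site ranked 289 in control, 2299 in TBP and 688 in TIP. Zfp740 also had a 5′ UTR site in all 4 lists, and with Zfp664 it had the most 5′ UTR peaks of the family, 6 each.

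Zfp91, a ubiquitin ligase of non-canonical NF-κB signalling, held the best-ranked Zfp peak in control. Its 3′ UTR site at chromosome 19, 12769947 to 12770121, ranked 76 in control, 237 in TBP and 71 in TCP. In TIP its 1 peak ended at the base before this site, at 12769946, and ranked 2269. A second gene model, Gm44505, lies over these peaks on the same strand, so Zfp91 is uncertain as their source. Zfp451, Zfp800 and Zfp710 and the decay factor Zfp36l2 completed the leading 10. Lists of different length weigh unequally in a mean of ranks: with ranks as a percentage of each list, Zfp91 left the 10, Zfp445 entered, and Zfp451 came before Zfp207. Zfp800 had 4 (control), 4 (TBP), 6 (TCP) and 3 (TIP) peaks, all 17 in exon 5 of 6. Zfp710 had 1, 2, 4 and 2, of which 8 of 9 lay in exon 2 of 5.

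Of the CCCH decay factors, Zfp36l2 had peaks numbering 2 (control), 3 (TBP), 4 (TCP) and 3 (TIP). Of these 12 peaks, 11 lay in its 3′ UTR within chromosome 17, 84185231 to 84185755, and the site from 84185606 was in all 4 lists. Zfp36, tristetraprolin, had a single peak in TCP, in exon 2 of 2, at rank 5932 of 6981, and Zfp36l1 a single TCP peak in its 3′ UTR at rank 3393. Both had 0 in control, TBP and TIP. Zfp217, which binds the m6A methyltransferase Mettl3 in mouse stem cells, had peaks numbering 2 (control), 1 (TBP), 2 (TCP) and 1 (TIP), 3 in the 3′ UTR and 3 in exons.

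The last-exon share of exon peaks was higher in Zfp genes than in other genes in every list. In control, 66.7% (53.7 to 78.0) of 63 Zfp exon peaks lay in the last exon, against 35.6% (33.4 to 37.8) of 1871 exon peaks of other genes. The share was 62.5% (52.0 to 72.2) and 34.8% in TBP, 56.4% (46.6 to 65.8) and 32.7% in TCP, and 53.2% (38.1 to 67.9) and 34.1% in TIP. These peaks lie outside annotated UTRs, and the Zfp intervals did not overlap those of other genes in any list. The Zfp peaks of the 4 lists share genes and sites, so the lists are not independent of one another, and several peaks of a gene are not independent either.

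The 3′ UTR share was lower in Zfp genes in every list, but in control its interval overlaps that of other genes (49.5 to 52.6). It was 41.0% (32.0 to 50.5) of 117 Zfp peaks and 51.1% of other peaks in control, 36.7% (29.4 to 44.4) and 50.9% in TBP, 36.9% (30.1 to 44.0) and 48.7% in TCP, and 33.8% (23.2 to 45.7) and 48.96% in TIP. Added up, the last exon and the 3′ UTR held 76.9% (68.2 to 84.2) of Zfp peaks and 66.7% of other peaks in control. The values were 72.2% (64.8 to 78.8) and 66.4% in TBP, 68.2% (61.2 to 74.6) and 63.9% in TCP, and 67.6% (55.7 to 78.0) and 64.9% in TIP, where all 3 Zfp intervals include the other genes' value. The 5′ UTR share of Zfp peaks lay between 2.70% and 6.57%, and the Zfp intervals include the other genes' value in each list.

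**Figure D3:**
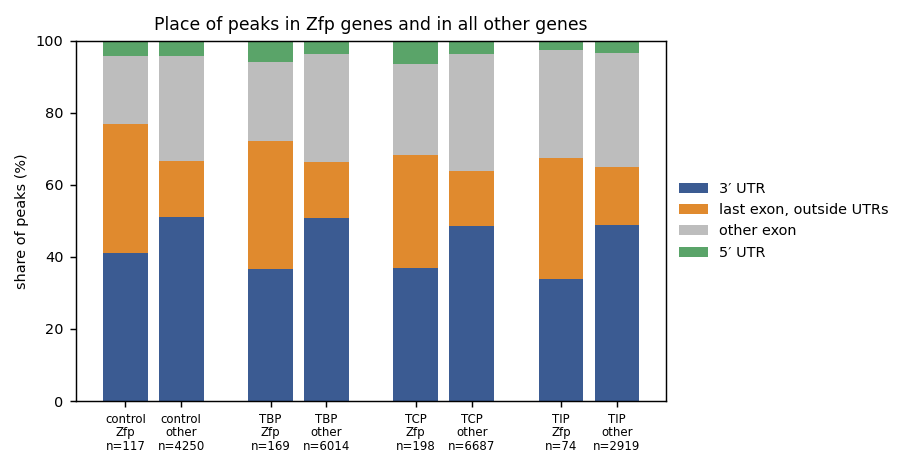
Share of peaks (y axis, percent) in 3′ UTRs, in the last exon outside UTRs, in other exons and in 5′ UTRs, for Zfp genes and all other genes in each list, with the number of peaks under each bar. The last-exon part is 31.3% to 35.9% of the Zfp peaks and 15.2% to 15.9% of other peaks.

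Counted by gene, each gene weighs the same, but a gene with more peaks has more chances to hold one in a class. In control, 27 of 64 marked Zfp genes had a last-exon peak, 42.2% (29.9 to 55.2), against 18.2% of other genes. The shares were 45.3% and 18.8% in TBP, 45.0% and 18.7% in TCP, and 41.0% (25.6 to 57.9) and 17.56% in TIP. The 3′ UTR share by gene was 53.1% (40.2 to 65.7) and 64.8% in control, 56.0% (44.1 to 67.5) and 67.7% in TBP, 58.8% (47.2 to 69.6) and 65.5% in TCP, and 41.0% (25.6 to 57.9) and 61.9% in TIP. Counted this way, the Zfp interval for the 3′ UTR includes the other genes' value in control and TCP, and lies below it in TBP and TIP. Over all lists together, 21 of the 94 genes had every peak in the last exon, 30 had every peak in the 3′ UTR, and 9 had none in either. Examples of the first kind were Zfp266 and Zfp518a, with 9 of 9 last-exon peaks each, and Zfp281, a factor of embryonic stem cells, with 8 of 8. Zfp148, which binds GC-rich promoters, had 11 of 13 in its last exon.

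The transcripts of Zfp genes had fewer exons, a median of 6 for the control exon peaks against 11 in other genes, and with fewer exons the last is a larger part of them. Among transcripts of 6 to 9 exons, 71.0% (52.0 to 85.8) of 31 Zfp exon peaks in control lay in the last exon, against 35.2% (29.7 to 41.1) of 284 in other genes. The values were 63.8% (48.5 to 77.3) and 36.2% in TBP, 58.8% (44.2 to 72.4) and 35.0% in TCP, and 62.5% (40.6 to 81.2) and 39.5% in TIP. The TIP intervals overlap. Without the 5 genes with most peaks, the Zfp value was 65.4% (44.3 to 82.8) in control and 58.5% (42.1 to 73.7) in TBP. It was 47.5% (31.5 to 63.9) in TCP and 55.0% (31.5 to 76.9) in TIP, where the intervals include the other genes' value. Among transcripts of 2 to 5 exons the shares were 81.8% (59.7 to 94.8) and 69.2% in control, 86.2% (68.3 to 96.1) and 67.5% in TBP, 87.1% (70.2 to 96.4) and 65.4% in TCP, and 75.0% (42.8 to 94.5) and 68.6% in TIP. The Zfp interval lies above the other genes' value in TBP and TCP and includes it in control and TIP. Among those of 10 or more exons the control shares were 11.1% (0.281 to 48.2) of 9 peaks and 16.3%. The lengths of the exons were not used here.

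Few Zfp peaks lay at the very end of the gene. Within 1 kb of the gene's 3′ end lay 11.1% (6.05 to 18.3) of Zfp peaks and 21.6% of other peaks in control, 8.28% (4.60 to 13.5) and 22.0% in TBP, 7.58% (4.30 to 12.2) and 19.8% in TCP, and 2.70% (0.329 to 9.42) and 20.4% in TIP. Within 10 kb the shares were close, 74.4% (65.5 to 82.0) and 72.1% in control. The gene's end is that of the RefSeq gene span, which can lie beyond the end of the transcript used.

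The compound lists were each compared with the control list. A gene is called gained where the compound list alone of that pair marks it, and lost where the control list alone does. After TBP, 17 Zfp genes were gained, 18.1% (10.9 to 27.4) of the 94, where 25.0% of all 4307 genes were gained. In turn, 6 were lost, 6.38% (2.38 to 13.4), where 9.91% of all genes were. Of the 64 control Zfp genes, 58 also had a TBP peak, 90.6% (80.7 to 96.5), against 82.8% of all control genes. Both Zfp intervals include the share over all genes. Of the 17 gained Zfp genes, 12 had a single TBP peak, where 45.3% of all Zfp genes in TBP and 56.8% of other genes there did. The share among all genes gained in TBP is not given here.

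Zfp362 ranked best among the genes gained in TBP and in TIP, and level with Zfp426 in TCP. It had peaks numbering 0 (control), 2 (TBP), 3 (TCP) and 1 (TIP), all in its 3′ UTR on chromosome 4, with strongest ranks of 1470 of 6285, 2043 of 6981 and 1565 of 3034. The TBP and TIP peaks overlapped at 128774138 to 128774237, and all 6 lie nearest to another gene by the authors' column. Next in TBP were Zfp386 (1 TBP peak, rank 1571), Zfp746 (2 peaks), a repressor of the coactivator gene Ppargc1a also called PARIS, Zfp260 (2 peaks, both in the 5′ UTR) and Zfp322a (1 peak in exon 4 of 4). Another gene of unknown strand, 4930586N03Rik, lies over the Zfp322a peaks, so their source is uncertain. The lost genes were led by Zfp958, Zfp385a, which binds p53 and RNA, Zfp275, Zfp827 and, at an equal rank, Zfp27 and Zfp52, each with 1 control peak and 0 in TBP. Their control ranks lay between 2107 and 3772 of 4432, in the middle and lower part of the list.

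After TCP, 23 Zfp genes were gained, 24.5% (16.2 to 34.4), where 30.6% of all genes were, and 7 were lost, 7.45% (3.05 to 14.7), where 9.22% were. TCP peaks were found in 57 of the 64 control Zfp genes, 89.1% (78.8 to 95.5), against 84.0% of all control genes. Among the 57, the control list held 110 peaks and the TCP list 170, and 27 genes had more peaks in TCP, 5 fewer and 25 the same number. These counts were not made over all kept genes, so they do not tell Zfp genes from other genes. The TCP list is the longer, with 6981 peaks against 4432. Over all marked genes of a list, not only the kept ones, peaks per gene averaged 1.76 in control and 2.02 in TCP in other genes. In Zfp genes the means were 1.83 and 2.48, and 1.53 and 2.01 without the 5 Zfp genes with most peaks. The gained genes ranking best were Zfp362 and Zfp426 (rank 2043 each), Zfp839 and Zfp90 (2397 each) and Zfp322a and Zfp60 (2827 each). Zfp839 had 0 (control), 3 (TBP), 2 (TCP) and 0 (TIP) peaks. The lost genes were, in order of control rank, Zfp422, Zfp12, Zfp688, then Zfp324, Zfp385a and Zfp706 at an equal rank, and Zfp52. Zfp422 had the strongest control peak among them, rank 540, in its 3′ UTR, and that site was present in TBP (rank 4234) and TIP (2449).

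After TIP, 2 Zfp genes were gained, 2.13% (0.259 to 7.48), where 7.64% of all genes were, and 27 were lost, 28.7% (19.9 to 39.0), where 23.6% were. The gained genes were Zfp362 and Zfp110, the latter a partner of the neurotrophin receptor p75. Zfp110 had 0 (control), 1 (TBP), 2 (TCP) and 1 (TIP) peaks, at the same last-exon site in the 3 compound lists (chromosome 7, 12848737 to 12848811). No other Zfp gene was marked by all the compound lists but not by control. Zfp362 and Zfp110 were thus 2.13% of the Zfp genes, where 3.55% of all genes had this pattern. Of the 27 lost genes, 22 had a single control peak, where 57.8% of all Zfp genes in control and 61.3% of other genes there did. The share among all genes lost in TIP is not given here. Those ranking best in control were Zfp770 and Zfp830 (rank 1328 each), Zfp12 and Zfp64 (1581 each), and Zfp84, Zfp142, Zfp180 and Zfp280b (1698 each). Zfp770 had 1, 2, 3 and 0 peaks, all in exon 2 of 2, and Zfp146, chosen after its values were seen, had 3, 2, 3 and 0. TIP peaks were found in 37 of the 64 control Zfp genes, 57.8% (44.8 to 70.1), against 59.1% of all control genes.

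**Figure D4:**
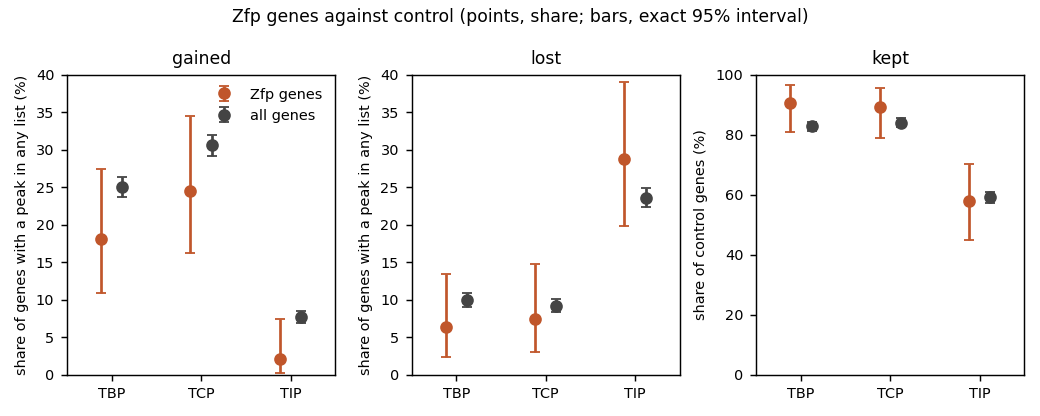
Share of Zfp genes (orange) and of all genes (dark grey) gained or lost with each compound, as a percentage of genes with a peak in any list, and share of control genes kept (right). Bars are exact 95% intervals. The Zfp bars reach the values of all genes except for genes gained in TIP, where 2.13% stands against 7.64%.

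These counts moved with list length. When each list was cut to its 3034 best-scored peaks, 69 Zfp genes had a peak in some list, of which 9 were gained and 13 lost in TBP, 13 and 15 in TCP, and 6 and 16 in TIP. All genes then gave 17.0% gained in TBP, 17.8% in TCP and 16.5% in TIP, against 13.0%, 18.8% and 8.70% of the Zfp genes. The lost shares of all genes were 17.5% (TBP), 18.6% (TCP) and 19.7% (TIP), against 18.8%, 21.7% and 23.2% of the Zfp genes. The shares of control Zfp genes kept were then 73.5% in TBP, 69.4% in TCP and 67.3% in TIP, close to the 73.3%, 71.7% and 69.9% of all genes.

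The compounds were given at 1 dose and 1 time, so 3 pairs could be compared over the same 94 genes. Peaks in both TBP and TCP were held by 63 genes, in TBP but not TCP by 12 and in TCP but not TBP by 17. Over all 4307 genes with a peak these counts were 2468, 661 and 930. Of the 94 Zfp genes, 79.8% had a TBP peak, 85.1% a TCP peak and 41.5% a TIP peak. Over all genes the values were 72.6%, 78.9% and 41.6%. For the Zfp genes, TCP minus TBP was 5.32 percentage points. TIP minus TBP was −38.3 points and TIP minus TCP −43.6 points, and the TIP list is also the shortest. The variation between libraries is not known, so these differences carry no interval and do not show whether the compounds act alike. Most Zfp genes of TIP were also in the longer lists. All 39 had a TBP peak (100%, 91.0 to 100), 38 had a TCP peak (97.4%, 86.5 to 99.9) and 37 a control peak (94.9%, 82.7 to 99.4). Of 1754 other TIP genes, 85.6%, 89.2% and 81.4% did. At equal list length the Zfp values were 87.2% (72.6 to 95.7), 79.5% and 84.6%, and those of other genes 71.7%, 73.5% and 73.2%. No Zfp gene had a peak in TIP alone, where 1.35% of all genes did. In TCP alone 13 had one, 13.8% against 14.3% of all genes, and in TBP alone 7, 7.45% against 9.64%. In control alone there were 2, Zfp385a and Zfp52, 2.13% against 3.71%.

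At the level of peaks, 61.5% (52.1 to 70.4) of 117 control Zfp peaks overlapped a TBP peak by at least 1 bp, 64.1% (54.7 to 72.8) a TCP peak and 35.0% (26.5 to 44.4) a TIP peak. For other genes the shares were 57.3%, 55.6% and 35.3%. Many peaks without an overlap had a compound peak close by: within 100 bp the shares of Zfp control peaks were 76.9%, 78.6% and 47.9%. Of 305 Zfp sites, 53.8% (48.0 to 59.5) were in a single list and 10.2% (7.01 to 14.1) in all 4, against 60.8% and 10.6% of 11264 sites in other genes. Of the 36 Zfp genes in all 4 lists, 20 had a site with a peak from each list. Others had sites in 3 lists, such as that of Zfp710 in exon 2. The same count was not made over the 1286 genes of any name in all 4 lists. Overlapping peaks were joined in a chain, so the peaks of a site need not all overlap one another.

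Many Zfp genes lie in tandem clusters. Of the 225 protein-coding Zfp genes with another within 100 kb, 39 held a peak, 17.3% (12.6 to 22.9), against 55 of 172 without such a neighbour, 32.0% (25.1 to 39.5), and these intervals do not overlap. On chromosome 13, 3 of 37 Zfp genes had a peak, and on chromosome 4, 2 of 27, while 19.6% and 20.6% of the other protein-coding genes there did. On chromosome 9, 8 of 20 had one, 40% against 22.6% of other genes, and on chromosome 7, which has the most Zfp genes, 19 of 93, 20.4% against 12.9%. Clustered Zfp genes can be near-identical in sequence, and how the authors' alignment treated reads that fit several copies is not given in the sources used here. The parts of expression and of such reads in this difference were not tested.

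**Figure D5:**
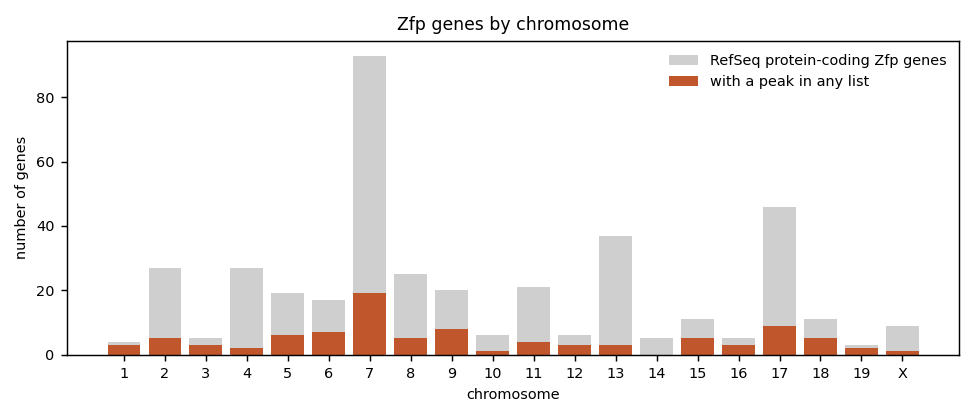
Number of protein-coding Zfp genes in RefSeq (grey bars, GRCm38.p6) and of those with a peak in any list (orange) on each chromosome. Chromosome 7 holds the most, 93 with 19 marked, and chromosomes 13 and 4 show 3 of 37 and 2 of 27.

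Other zinc finger families and the partners of KRAB proteins were read in the same way. Of 17 corepressor and heterochromatin genes picked for their role, 12 had a peak in any list, 70.6%, where 19.3% of all 21896 protein-coding genes did. They numbered 8 (control), 10 (TBP), 7 (TCP) and 6 (TIP). The 21896 genes were not limited to those expressed in these cells, and expression was not compared, so the 2 shares are not of like genes. Tasor, a core subunit of the HUSH silencing complex, had 3, 7, 6 and 3 peaks, Setdb1 had 2, 3, 3 and 3, and Trim28 had 1 peak, in TBP. None of this group's 42 exon peaks lay in a last exon. Over the 4 lists together, 34.1% of the exon peaks of genes not named Zfp did. In transcripts of 10 or more exons that share was between 14.5% and 16.3% per list, and the exon totals of this group were not compared.

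Of 41 genes named Zbtb, most of which join a BTB domain to zinc fingers, 18 had a peak, and 47 of their 69 exon peaks, 68.1%, lay in the last exon. They were taken by symbol and not by protein domain, and the marked ones include Zbtb8os, with 1 TCP peak. Zbtb1 had 1 (control), 6 (TBP), 5 (TCP) and 4 (TIP) peaks, all 16 in the last exon. Of 32 genes of the Zkscan and Zscan group 6 had a peak, and 3 of 4 exon peaks were in the last exon. The 5 marked Klf genes of 21 Klf and Egr genes were marked in the 3′ UTR, at 96.6% of 29 peaks, as in the 13 of 14 peaks of Klf9. Of 19 Zc3h genes, with CCCH fingers, 9 had a peak and 8 of 46 exon peaks were in the last exon. Zc3h13, a subunit of the m6A methyltransferase complex, had 2, 3, 2 and 2 peaks. The 7 marked Zdhhc genes of 24, which encode palmitoyltransferases, had 0 exon peaks assigned to their own transcript.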

How the data were processed

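MeRIP-seq peak lists of 4 immunoprecipitated libraries (1 per condition) were analysed, and 4 input libraries were not. The score of each peak is the authors' deposited value, per the file headers. It served only for ranks and filters inside a list. Which caller and cutoff made the peaks, and whether inputs entered, is not given in the sources used here. The submitters' processing notes name HISAT2 2.1.0, HOMER 4.11 and ChIPseeker 1.26 without their roles. Coordinates are 1-based, on GRCm38.

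A peak was given to the gene of its exon annotation, else to the nearest gene if that holds it on its strand, else to the single RefSeq gene over it. The last step left out pseudogenes. Where several genes lay over the peak, it took the protein-coding gene of known strand if only a single such gene was there. These steps placed 20428 of 20732 peaks, and the nearest-gene column names another gene for 22.6% of the Zfp peaks. Exon and UTR classes are the authors' deposited annotation, and a last-exon peak is one outside UTRs. Equal scores share a rank. Shares have exact intervals (SciPy 1.17.1, pandas 2.3.3), and the scripts were tested on simulated data. Finger and KRAB counts, which were planned from protein sequences, were not made.

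The members, gene lists and comparisons were chosen with earlier results of these data known. Genes were named as the 10 best by mean rank among those in all 4 lists, the 5 with most peaks, the 5 best-ranked gained and lost genes per compound, those in all compound lists without control or in control alone, and the Zfp36 group. Zfp646 was named for its sequence. Genes tied with a named one were added. Zfp146, Zfp445, Zfp217, Zfp266, Zfp518a, Zfp281, Zfp148, Zfp664 and single genes of other families were chosen after their values were seen.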

Additional observations from a re-analysis of the deposited data

Results flagged for a closer look

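The number of marked Zfp genes moved in opposite directions between compounds: against the control list it differed by 11 in TBP, by 16 in TCP and by -25 in TIP. With 1 library per condition this difference was not tested. All marked genes moved in the same directions, with 2479 (control), 3129 (TBP), 3398 (TCP) and 1793 (TIP). The number of peaks in the lists had the same order. Lists cut to 3034 peaks gave 49 (control), 45 (TBP), 47 (TCP) and 39 (TIP) Zfp genes, and 1885, 1871, 1862 and 1793 genes in all.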

How the results depend on the processing

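A count is given below where it changed by over 1.5 times, and a share or mean where it left its own 95% interval. None of 30 results did so when peaks over 500 bp were left out, nor the 3 overlap shares when an overlap of 50% of the shorter peak was asked for (59.0%, 64.1% and 33.3% for TBP, TCP and TIP). With lists of equal length, Zfp genes numbered 45 in TBP and 47 in TCP, gained genes 9 (TBP), 13 (TCP) and 6 (TIP), and lost genes 13, 15 and 16. The gained and lost shares at that length are given above beside those of all genes. Kept control genes were then 73.5% in TBP and 69.4% in TCP, overlapped control peaks 51.3%, 50% and 47.4% (TBP, TCP, TIP), and peaks per gene 1.60 in TBP and 1.70 in TCP. With the better-scored peaks of each list (median or above), Zfp genes numbered 40 in control, 49 in TBP and 24 in TIP, kept control genes were 77.5% in TBP, gained genes 4 in TIP, and peaks per gene 1.5, 1.78, 1.95 and 1.46 (control, TBP, TCP, TIP). Both settings hold fewer peaks by construction. With the nearest-gene column, 1 gene was gained in TIP. Of the alternatives added after the data were seen, the strongest peak of each gene gave last-exon shares of 73.2% in TBP and 70.7% in TCP and a 3′ UTR share of 45.0% in TCP. Leaving out the 5 genes with most peaks gave 2.01 peaks per gene in TCP. Counting a compound peak within 100 bp gave overlaps of 76.9%, 78.6% and 47.9%. The causes of these last changes were not tested. No replicate could be left out, and depth is unknown. No paired analysis was possible because each condition has 1 library and the results come from no test.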
